A study of Homo sapiens with 9 samples.

Results

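Oxidative phosphorylation is carried out by 5 enzyme complexes of the inner mitochondrial membrane, and most of the genes described here encode their subunits. Members were all protein-coding genes of the deposited count table whose names begin with NDUF, UQCR, COX4, COX5, COX6, COX7, COX8, ATP5, MT-ND, MT-CO, MT-ATP or MT-CY, together with SDHA, SDHB, SDHC, SDHD and CYC1. The rule used names only, and it gave 111 genes of 58676 in the table, 98 of them nuclear and 13 encoded by the mitochondrial genome. Complex I had 53 members, complex II 4, complex III 11, complex IV 22 and complex V 21. By role, the nuclear members comprised 21 core subunits, 55 accessory subunits, 10 assembly factors, 10 isoforms or gene copies and 2 readthrough genes.

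RNA was sequenced from HaCaT cells, a single immortalised line of human keratinocytes grown in DMEM, with 3 libraries per group. The groups were 250 nM CDDO-Me, 10 µM PRL-295 and 1% DMSO as the control, each for 14 h. CDDO-Me (bardoxolone methyl) is an electrophilic activator of NRF2, the transcription factor of the antioxidant response, while PRL-295 appears only under its code name in a study titled for NRF2 activators that are not electrophilic. The labels do not say whether the compound cultures also held DMSO or whether each library had its own culture, so p-values measure only the spread between these samples, which may be technical.

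As background, complex I takes electrons from NADH and complex II from succinate, complex III passes them to cytochrome c and complex IV to oxygen, and complex V uses the resulting proton gradient to make ATP. Complexes I, III, IV and V combine nuclear subunits, imported from the cytosol, with subunits made inside the mitochondrion, while complex II is nuclear only. The mitochondrial genome is transcribed from both strands as long precursors that are cut into single messages, and MT-ND6 is the only protein gene on its light strand. NRF1, GABPA and ESRRA are known regulators of nuclear respiratory genes, and NRF2 is known to act on some of them.

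Libraries held 23383800 to 32942156 counted reads, and a floor of 3 counts corresponded to 0.0911 to 0.128 CPM, that is, counts scaled to a total of 1000000 per library. CDDO-Me library 1 had the fewest genes with a count, 14543, and stood apart in the members described below. The treatment was visible in 5 NRF2 target genes, of which 5 rose with CDDO-Me and 4 with PRL-295. HMOX1, the heme-degrading enzyme of this set, had 364, 375 and 355 CPM with CDDO-Me, 39.1, 46.2 and 39.2 with PRL-295, and 9.41, 10.1 and 14.1 with DMSO. Keratin KRT5 lay between 4372 and 7710 CPM in all 9 libraries, and 4 of 6 keratinocyte markers rose with CDDO-Me (their summed level was 15764 to 18025 CPM with CDDO-Me, 9832 to 10527 with PRL-295 and 12475 to 13822 with DMSO). The 6 fibroblast markers summed to at most 13.1 CPM, the 5 melanocyte markers to at most 4.25, the 5 immune markers to at most 1.96 and the 4 endothelial markers to at most 2.35. No read fell on COL3A1, DCN, LUM, TYR or PECAM1, markers of fibroblasts (the first 3), melanocytes and endothelium.

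For 75 of the 98 nuclear members, RefSeq (build GRCh38.p14) gave a window from 250 bases before to 50 after the start of the gene. Windows are shown for the called nuclear members that the table held (ATP5J, SDHA and NDUFV1) and for NDUFS1, so that the letters can be read against the values below. ATP5J is listed there under its current symbol, ATP5PF, and ATP5J and NDUFS1 have a second window each that is not shown, of which that of NDUFS1 holds the ETS family site searched below. Each line runs 5′ to 3′ on the strand of the gene, and capitals mark an exact match to a searched motif on either strand.
ATP5J, chr21:25735005-25735304, minus strand: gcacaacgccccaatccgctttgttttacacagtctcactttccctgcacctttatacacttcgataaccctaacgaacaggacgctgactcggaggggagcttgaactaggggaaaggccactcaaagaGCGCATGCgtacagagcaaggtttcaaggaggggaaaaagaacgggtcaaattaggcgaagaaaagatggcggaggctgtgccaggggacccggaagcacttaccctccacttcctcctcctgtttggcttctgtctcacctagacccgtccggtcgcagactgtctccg
NDUFS1, chr2:206159160-206159459, minus strand: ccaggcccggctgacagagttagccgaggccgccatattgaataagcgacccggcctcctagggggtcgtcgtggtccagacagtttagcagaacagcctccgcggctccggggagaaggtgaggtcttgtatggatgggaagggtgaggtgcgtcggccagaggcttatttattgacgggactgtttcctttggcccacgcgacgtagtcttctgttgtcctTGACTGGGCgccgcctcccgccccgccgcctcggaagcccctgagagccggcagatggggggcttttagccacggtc
SDHA, chr5:218070-218369, plus strand: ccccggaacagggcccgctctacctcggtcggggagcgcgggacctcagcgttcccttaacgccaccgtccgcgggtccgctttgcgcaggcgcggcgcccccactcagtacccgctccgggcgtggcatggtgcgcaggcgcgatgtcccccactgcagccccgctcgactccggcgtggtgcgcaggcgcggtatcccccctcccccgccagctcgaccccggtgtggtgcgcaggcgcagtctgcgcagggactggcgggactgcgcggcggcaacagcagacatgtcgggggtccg
NDUFV1, chr11:67606686-67606985, plus strand: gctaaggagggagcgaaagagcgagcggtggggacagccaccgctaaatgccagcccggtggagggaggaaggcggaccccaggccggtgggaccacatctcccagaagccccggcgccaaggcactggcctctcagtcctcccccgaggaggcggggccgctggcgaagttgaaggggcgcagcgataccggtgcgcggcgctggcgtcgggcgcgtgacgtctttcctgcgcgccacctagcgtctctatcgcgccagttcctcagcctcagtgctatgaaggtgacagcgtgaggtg
In all, 3 motifs were searched on both strands: TGACNNNGC, the core of the antioxidant response element that NRF2 binds, GCGCATGC, part of the NRF1 site, and CCGGAAGTG, an ETS family site of the kind GABPA binds. No base of the windows shown fell in 2 motifs. The capitals in the ATP5J window are GCGCATGC and those in the NDUFS1 window are TGACTGGGC, and neither the SDHA nor the NDUFV1 window held any of the searched motifs. Over the 75 matched members, GCGCATGC occurred in the windows of 16 (21.3%), against 3.68% of 27305 genes in the same table. TGACNNNGC occurred in 14 members (18.7%), against 16.1% of all genes, and CCGGAAGTG in 3 members (4.0%), against 2.81%. The 16 members with GCGCATGC had a median log2 fold change of -0.04 with CDDO-Me and 0.24 with PRL-295, and the 55 tested members without it -0.17 and 0.19. The 14 members with TGACNNNGC had medians of 0.01 with CDDO-Me and 0.26 with PRL-295, and the 57 tested members without it -0.16 and 0.19. These matches describe letters in a window, and whether any factor binds there was not measured.

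Reads of the members made up a small and uneven part of each library. The 13 mitochondrially encoded genes took 5.23%, 4.54% and 4.34% of counted reads in CDDO-Me libraries 1 to 3, 5.14%, 4.57% and 4.89% in PRL-295 libraries 1 to 3, and 3.72%, 4.67% and 4.31% in DMSO libraries 1 to 3. The highest value was that of CDDO-Me 1 and the lowest that of DMSO 1, and each compound overlapped DMSO. Group means were 4.70% ± 0.471 with CDDO-Me, 4.87% ± 0.288 with PRL-295 and 4.23% ± 0.481 with DMSO (SD, n = 3 each). The 98 nuclear genes together took 0.674%, 0.843% and 0.833% with CDDO-Me, 0.902%, 1.09% and 0.930% with PRL-295, and 0.815%, 0.855% and 1.02% with DMSO. All 3 PRL-295 libraries lay above all 3 CDDO-Me libraries in nuclear reads, and both groups overlapped DMSO. The Wilson 95% half-width of any of these shares was at most 0.00878 percentage points, which covers counting error only.

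**Figure D1:**
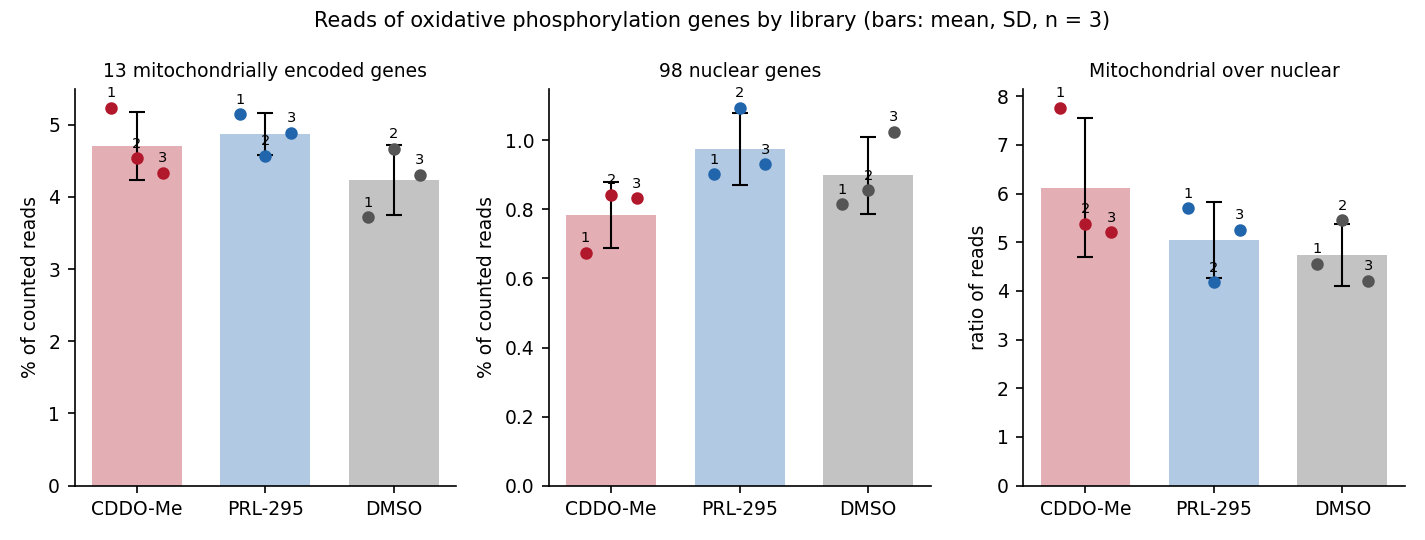
Percent of counted reads in the 13 mitochondrially encoded genes and in the 98 nuclear genes, and the ratio of mitochondrially encoded to nuclear reads, for CDDO-Me, PRL-295 and DMSO; points are libraries with their number, bars the mean and error bars the SD (n = 3). CDDO-Me 1 has the highest mitochondrial share (5.23%), the lowest nuclear share (0.674%) and the highest ratio (7.76).

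The ratio of mitochondrially encoded to nuclear reads was 7.76, 5.38 and 5.21 with CDDO-Me, 5.70, 4.18 and 5.26 with PRL-295, and 4.56, 5.46 and 4.21 with DMSO. Without CDDO-Me 1, the remaining CDDO-Me ratios lay inside the DMSO range. That library was also the lowest of all 9 for 47 of 90 tested nuclear members and the highest for 9 of 12 tested mitochondrially encoded members. PRL-295 library 2 was the highest for 47 of the 90 nuclear members, and DMSO 1 the lowest for 7 of the 12 mitochondrially encoded ones. In bulk RNA, fewer mitochondria in a cell and less RNA in each mitochondrion cannot be told apart, and neither can fewer cells of a type and less RNA per cell.

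Per unit of length, every tested mitochondrially encoded gene stood above every nuclear member. In the deposited FPKM (counts scaled by gene length and library total), averaged over the 9 libraries, they ran from 1054 for MT-ND6 to 9997 for MT-CO1, the catalytic subunit of complex IV. The highest nuclear member was ATP5B, the catalytic beta subunit of complex V, at 529 FPKM. It was followed by CYC1 (cytochrome c1 of complex III) at 199, NDUFA8 at 161 and NDUFB7 at 159 (both accessory subunits of complex I), COX4I1 at 111 and COX5B at 106 (complex IV). UQCR10 had 95.2 FPKM and ATP5C1, the gamma subunit of complex V, 82.0. In complex II, SDHB had 32.8 and SDHA 31.6 FPKM.

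At the low end, 12 of 76 nuclear core and accessory subunits averaged under 2 FPKM, among them the core subunits NDUFV2 (0.167 FPKM) and NDUFS7 (0.294). For 11 of these 12, at least 10% of the exon bases overlapped another gene in GENCODE release 29 (median 23.2%), against 19 of the other 64 subunits (median 0.0138%). Whether counting dropped reads in shared bases is not given, and the part of the overlap in these low values was not tested. UQCRB was the next lowest, at 2.94 FPKM. Isoforms known from other tissues were scarce: COX4I2, COX6A2, COX7B2 and COX8C had no read in any library. The copy ATP5EP2 and the readthrough gene NDUFC2-KCTD14 had no read either. How reads shared between genes were counted is not given, so these absences do not describe their level. NDUFA4L2 averaged 1.96 CPM and COX7A1 0.407 CPM. In all, 102 members (90 nuclear and 12 mitochondrially encoded) passed the filter on low counts. Besides the 6 without a read, MT-ATP8, ATP5L2 and ATP5J2-PTCD1 were not tested. MT-ATP8 had 44 counts in CDDO-Me 2 and 1 to 8 in each other library, and 22.2% of its bases overlap MT-ATP6.

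With CDDO-Me, 8 of 102 tested members changed against DMSO (7.84%), close to the 9.22% of all 16239 tested genes that were called in the edgeR quasi-likelihood test (Benjamini-Hochberg adjusted p under 0.05). The 4 higher were UQCRB, ATP5J, MT-ND4L and MT-ND4, and the 4 lower were ATP5D, SDHA, NDUFV1 and MT-ND1. Among all tested genes 4.65% were called higher and 4.57% lower. Complexes I, II, III and V were represented, and no member of complex IV was called. By genome, 3 of 12 mitochondrially encoded members and 5 of 90 nuclear members were called. At an unadjusted p under 0.05, 7 members were higher and 16 lower, against 13.4% of all genes higher and 12.6% lower. DESeq2 called 10 members (17.4% of the 14475 genes it gave an adjusted p), edgeR without a filter 13 (8.59% of 29198 genes) and limma on log2(FPKM + 1) 5 (8.94% of 16239 genes). All limma calls were of lower members, on log2(FPKM + 0.1) as well, and none of UQCRB, ATP5J, MT-ND4L, MT-ND4 and MT-ND1 was called in either limma fit. In a fit of the CDDO-Me and DMSO libraries alone, UQCRB, MT-ND4L, ATP5D and SDHA were called and the other 4 were not. The count moved with the libraries used. Leaving out one of the CDDO-Me libraries 1, 2 or 3 gave 9, 3 or 2 called members, and leaving out one of the PRL-295 libraries 1, 2 or 3 gave 4, 11 or 3. Without any single DMSO library 1 member was called, which was NDUFS1 in the fit without DMSO 3. The share of the genes tested that were called ran from 2.37% to 16.5% over these 9 fits. In a setting chosen after the values were seen, leaving out both CDDO-Me 1 and PRL-295 2, 17 members were called, all 8 among them, and so were 24.9% of the 16938 genes tested.

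The nuclear genes that rose were low and uneven between libraries. UQCRB, an accessory subunit of complex III (chr8:96225920-96235634, minus strand, hg38), had 8.56, 68.6 and 40.4 CPM with CDDO-Me, 48.4, 53.4 and 22.6 with PRL-295, and 7.67, 3.04 and 4.10 with DMSO. No compound library overlapped DMSO, but CDDO-Me 1 lay just above DMSO 1. A lack of overlap with DMSO was common: it held for 31.9% of all tested genes with CDDO-Me and 28.8% with PRL-295. The log2 fold change of UQCRB was 3.00 (SE 0.645, adjusted p = 0.0174, edgeR quasi-likelihood test) with CDDO-Me and 3.11 (SE 0.648, adjusted p = 0.0621) with PRL-295. The CDDO-Me call ended without CDDO-Me 2, DMSO 2 or DMSO 3 (adjusted p of 0.0524, 0.0941 and 0.0737), and the log2 fold change was 2.30 without CDDO-Me 2. With limma it was 1.52 on log2(FPKM + 1) and 2.43 on log2(FPKM + 0.1), and not called (adjusted p of 0.0850 and 0.0618). The PRL-295 comparison passed the threshold when CDDO-Me 1 (adjusted p = 0.00297) or CDDO-Me 2 (adjusted p = 0.0189) was left out of the fit. It also passed in a fit of the PRL-295 and DMSO libraries alone and with the GC content and length trend taken out. Further passes were in edgeR without a filter, with DESeq2, and without CDDO-Me 1 and PRL-295 2 together.

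ATP5J encodes coupling factor F6 in the stalk of complex V (chr21:25716503-25735673, minus strand). It had 9.09, 29.5 and 24.2 CPM with CDDO-Me, 26.9, 24.7 and 20.1 with PRL-295, and 7.59, 6.01 and 10.1 with DMSO. All PRL-295 libraries lay above DMSO, while CDDO-Me 1 lay within the DMSO range. The log2 fold change was 1.40 (SE 0.367, adjusted p = 0.0390, edgeR) with CDDO-Me and 1.63 (SE 0.369, adjusted p = 0.0846) with PRL-295. The CDDO-Me call held without CDDO-Me 1 (adjusted p = 0.00101) or PRL-295 2 (adjusted p = 0.0365) and ended without any of the other 7 libraries, at adjusted p between 0.0527 and 0.156. The PRL-295 comparison passed in edgeR without CDDO-Me 1 (adjusted p = 0.00339) or CDDO-Me 2 (0.0339), and not without any of the other 7 libraries (0.132 to 0.404). It also passed in a fit of the PRL-295 and DMSO libraries alone (0.00390) and with the GC content and length trend taken out (0.0321). Further passes were in edgeR without a filter, with DESeq2, and without CDDO-Me 1 and PRL-295 2 together. Of its exon bases, 23.1% overlap GABPA or JAM2 on the opposite strand, and with the strand setting of the counting not given, reads of these genes cannot be told apart there.

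The nuclear genes that fell were core subunits with tighter libraries. ATP5D, the delta subunit of the complex V catalytic head (chr19:1241746-1244826, plus strand), had 98.9, 97.1 and 102 CPM with CDDO-Me, 125, 149 and 126 with PRL-295, and 158, 135 and 160 with DMSO. Every CDDO-Me library lay below every other library, and PRL-295 overlapped DMSO. The gene fell by 0.60 on the log2 scale with CDDO-Me (SE 0.116, adjusted p = 0.0110, edgeR), and the call ended without DMSO 1 (adjusted p = 0.0569) or DMSO 3 (0.0513). With a GC content and length trend taken out of each library, its log2 fold change was -0.26 (adjusted p = 0.107).

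SDHA, the flavoprotein of complex II that oxidises succinate (chr5:218241-256700, plus strand), had 221, 218 and 236 CPM with CDDO-Me, 243, 298 and 259 with PRL-295, and 303, 291 and 318 with DMSO. CDDO-Me libraries were again lower than all others, and PRL-295 2 overlapped DMSO. SDHA fell by 0.44 on the log2 scale with CDDO-Me (SE 0.108, adjusted p = 0.0313, edgeR). The fall was also called after the GC and length correction (-0.41, adjusted p = 0.0204). The call was lost without any of CDDO-Me 2, CDDO-Me 3, PRL-295 3 or the DMSO libraries, at adjusted p of 0.0660 to 0.121. SDHB, the iron-sulfur subunit of the same complex, had log2 fold changes of -0.04 with CDDO-Me and 0.21 with PRL-295, neither called. Of 4 complex II genes, SDHA alone was called.

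NDUFV1, the complex I subunit that binds NADH (chr11:67606852-67612535, plus strand), had 239, 192 and 216 CPM with CDDO-Me, 229, 255 and 237 with PRL-295, and 292, 299 and 277 with DMSO. Both compounds lay below all DMSO libraries. It fell by 0.43 on the log2 scale with CDDO-Me (SE 0.111, adjusted p = 0.0379, edgeR), and the value for PRL-295 was -0.24 (adjusted p = 0.399). The CDDO-Me call held without CDDO-Me 1 or PRL-295 2 (adjusted p of 0.0114 and 0.0318) and ended without any of the other 7 libraries, at adjusted p of 0.0521 to 0.152. After the GC and length correction the log2 fold change was -0.16 (adjusted p = 0.267). NDUFS1, the iron-sulfur core subunit next to it in the electron path of complex I, had 111, 119 and 128 CPM with CDDO-Me, 126, 141 and 131 with PRL-295, and 81.8, 82.4 and 116 with DMSO. All PRL-295 libraries lay above DMSO, but neither log2 fold change (0.35 with CDDO-Me, adjusted p = 0.149, and 0.54 with PRL-295, adjusted p = 0.135) passed in the main edgeR fit. NDUFS1 was called with CDDO-Me in edgeR without DMSO 3 (3.7% of genes called). With PRL-295 it was called in edgeR without a filter (2.83% of genes) and with DESeq2 (4.63%).

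**Figure D2:**
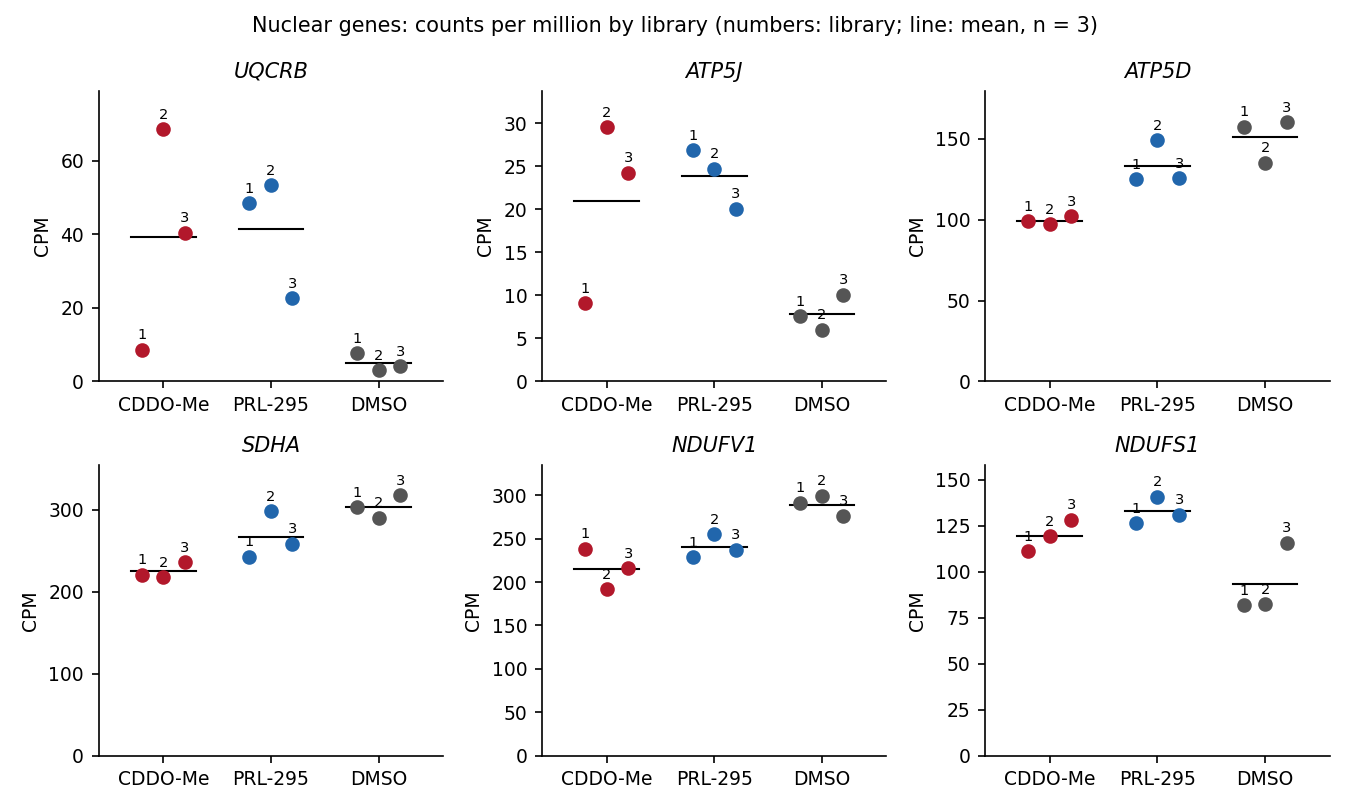
CPM of the 5 called nuclear genes and of NDUFS1 in each library of CDDO-Me, PRL-295 and DMSO; the numbers give the library and the line the mean (n = 3). UQCRB and ATP5J are low in CDDO-Me 1 (8.56 and 9.09 CPM) and higher in the other compound libraries, while ATP5D is lower in all CDDO-Me libraries (97.1 to 102 CPM) than in any other.

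Mitochondrially encoded messages did not move as a block with CDDO-Me. MT-ND4L and MT-ND4, adjacent complex I genes that share a bicistronic message (MT:10470-10766 and MT:10760-12137, plus strand), rose, and MT-ND1 (MT:3307-4262, plus strand), another membrane subunit of complex I, fell. MT-ND4L had 790, 424 and 585 CPM with CDDO-Me, 406, 358 and 506 with PRL-295, and 292, 387 and 315 with DMSO. Its CDDO-Me libraries lay above DMSO, and its log2 fold change was 0.85 (SE 0.215, adjusted p = 0.0344, edgeR). The call ended without CDDO-Me 3 or any DMSO library, at adjusted p of 0.0667 to 0.135, and in the limma fits on log2(FPKM + 1) and log2(FPKM + 0.1), at 0.0688 and 0.0713.

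MT-ND4 had 6504, 5866 and 5420 CPM with CDDO-Me, 5880, 4878 and 5647 with PRL-295, and 3385, 4671 and 4527 with DMSO. Both compounds lay above all DMSO libraries, by 0.49 with CDDO-Me (SE 0.135, adjusted p = 0.0453, edgeR) and 0.41 with PRL-295 (adjusted p = 0.227) on the log2 scale. Only leaving out PRL-295 2 kept the CDDO-Me call among the 9 such fits (adjusted p = 0.0327), and the others gave 0.0548 to 0.136. MT-ND1 had 1413, 1363 and 1372 CPM with CDDO-Me, 1765, 1656 and 1879 with PRL-295, and 1652, 1961 and 1746 with DMSO. It was lower in every CDDO-Me library than in any other and fell by 0.38 on the log2 scale (SE 0.0978, adjusted p = 0.0387, edgeR), a call that held without CDDO-Me 1 or PRL-295 2 (adjusted p = 0.0320 in each case) and ended in the other 7 such fits at 0.0537 to 0.173.

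The remaining mitochondrially encoded genes were not called in the main fit. MT-CO3 of complex IV had 4210, 3965 and 3852 CPM with CDDO-Me, 5454, 4504 and 5366 with PRL-295, and 4260, 5733 and 4891 with DMSO, so that its CDDO-Me libraries were the lowest (log2 fold change -0.31, adjusted p = 0.132, edgeR). MT-CO1, the marker of the set, had 17635, 15575 and 14992 CPM with CDDO-Me, 17534, 15680 and 15383 with PRL-295, and 12598, 15112 and 14231 with DMSO. Its log2 fold changes were 0.20 with CDDO-Me and 0.24 with PRL-295 (adjusted p of 0.259 and 0.365, edgeR). MT-ND3 had 2306 CPM in CDDO-Me 1, against 839 to 1230 CPM in the other 8 libraries. With CDDO-Me, MT-ND2, MT-ND5, MT-ND6, MT-ATP6 and MT-CYB had log2 fold changes of 0.23, 0.21, 0.25, 0.17 and 0.17, and MT-CO2 had -0.05. With PRL-295, all 12 log2 fold changes lay above 0, from 0.01 for MT-ND1 to 0.41 for MT-ND4.

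**Figure D3:**
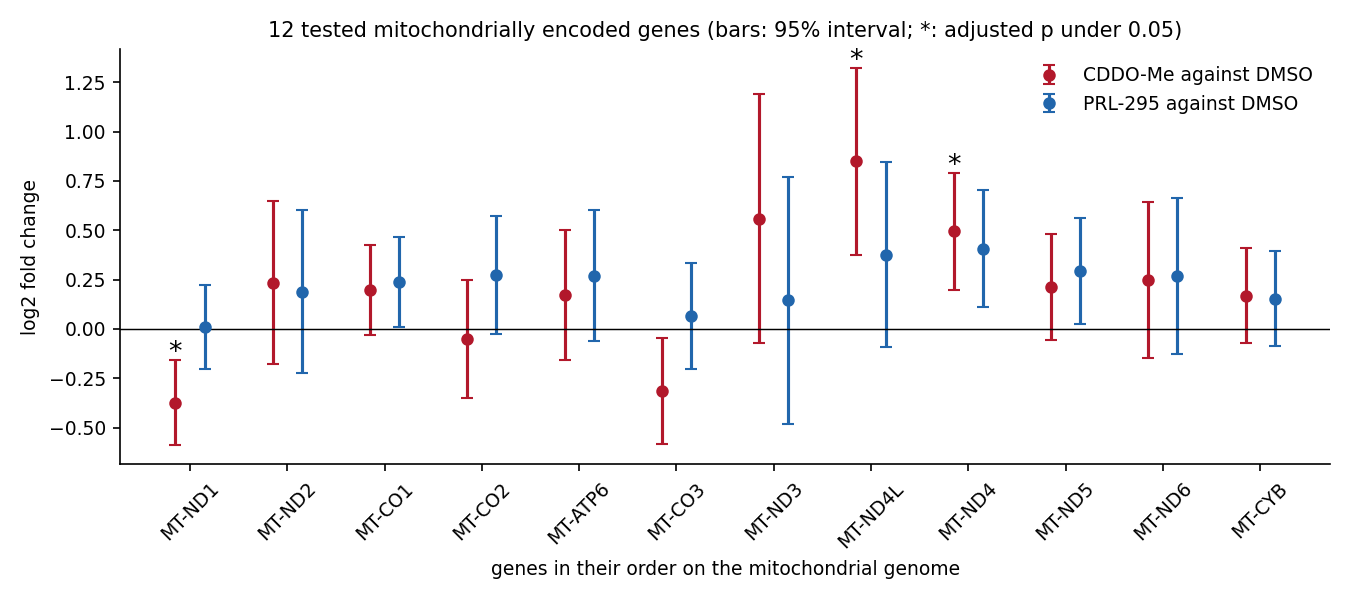
Log2 fold changes with 95% intervals of the 12 tested mitochondrially encoded genes for CDDO-Me and PRL-295 against DMSO, in their order on the mitochondrial genome; asterisks mark adjusted p under 0.05. With CDDO-Me the values run from -0.38 for MT-ND1 to 0.85 for MT-ND4L, and with PRL-295 from 0.01 to 0.41.

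Base composition differed along with these changes. GC content was 47.7% in MT-ND1 and 46.6% in MT-CO3, the mitochondrially encoded genes with the lowest log2 fold changes with CDDO-Me, and 44.3% in MT-ND4, 43.1% in MT-ND4L and 40.2% in MT-ND3, those with the highest. Over the 63 nuclear members that averaged 20 CPM or more, the Spearman correlation of log2 fold change with GC content was -0.68 for CDDO-Me and -0.63 for PRL-295 against DMSO, and 0.13 for PRL-295 against CDDO-Me (across genes, which share the libraries and are not independent). Over all 90 tested nuclear members these were -0.52, -0.49 and 0.10. The libraries themselves differed in this respect: across all tested genes, GC content correlated with the deviation of a library from the 9-library mean at -0.02, -0.55 and -0.14 in CDDO-Me libraries 1 to 3, -0.33, 0.27 and -0.08 in PRL-295 libraries 1 to 3, and 0.26, 0.21 and 0.27 in DMSO libraries 1 to 3. The part of base composition in the fold changes was not tested. The correction that follows takes out a trend with GC content and then one with gene length, so it cannot tell these apart. With the GC content and length trend taken out, the calls for MT-ND4L, MT-ND4 and MT-ND1 ended (log2 fold changes of 1.87, 0.53 and -0.03, adjusted p of 0.109, 0.183 and 0.964). UQCRB (2.32, adjusted p = 0.0416) and ATP5J (1.63, adjusted p = 0.0108) were still called. NDUFB7, called in neither fit, went from -0.42 to 0.49 with CDDO-Me.

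**Figure D4:**
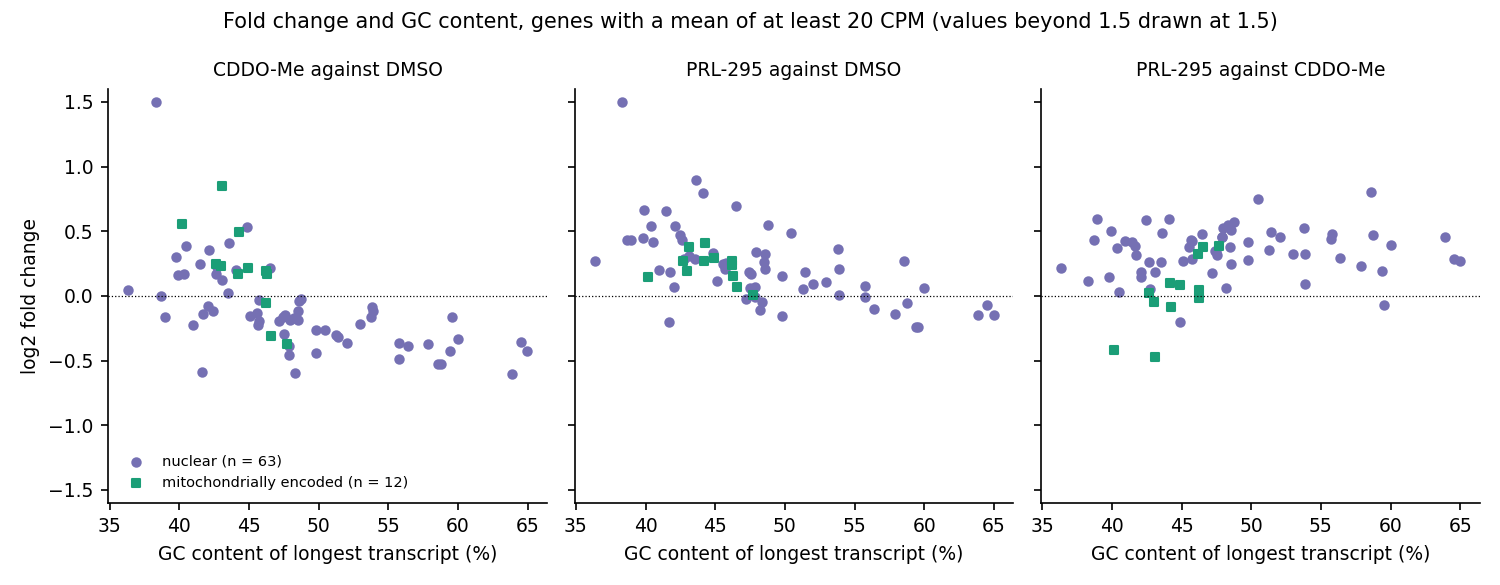
Log2 fold change against GC content of the longest annotated transcript for 63 nuclear and 12 mitochondrially encoded members with a mean of at least 20 CPM, in 3 comparisons; values beyond 1.5 are drawn at 1.5. The nuclear points slope down in both comparisons with DMSO (Spearman -0.68 and -0.63) and not in the direct one (0.13).

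Class medians describe how the 2 genomes stood beside each other. With CDDO-Me, the median log2 fold change was -0.16 over 90 nuclear members, with 31 above 0 and 59 below, and 0.21 over 12 mitochondrially encoded members, with 9 above 0. The median over all tested genes was 0.01. Nuclear core subunits had a median of -0.30, with 17 of 21 below 0 and 3 called lower (14.3%), beside 4.57% of all tested genes. The 55 accessory subunits had a median of -0.16, with 36 below 0. Of these 55, 2 were called higher (3.64%), beside 4.65% of all tested genes, and 0 were called lower. Assembly factors had a median of 0.05. By complex the nuclear medians were -0.15 for I, -0.06 for II, -0.21 for III, -0.19 for IV and 0.06 for V. Without CDDO-Me 1 the nuclear median was -0.06 and the mitochondrial one 0.06, and with the GC and length trend taken out they were -0.10 and 0.41.

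With PRL-295, no member was called against DMSO in edgeR, where 0.684% of all genes were called (0.462% higher and 0.222% lower). At an unadjusted p under 0.05 there were 13 members (12.7%), all higher, against 12.9% of all genes in either direction, 7.58% higher and 5.31% lower. DESeq2 called 4 members (ATP5C1, ATP5J, NDUFS1 and UQCRB) with 4.63% of the genes it gave an adjusted p, limma on log2(FPKM + 1) called 0 members with 0.462% of genes, and edgeR without a filter on low counts called 9 members with 2.83% of genes. ATP5C1 had 231, 304 and 219 CPM with PRL-295 and 108, 121 and 183 with DMSO, which did not overlap (log2 fold change 0.90, SE 0.265, adjusted p = 0.178, edgeR). The comparison passed for this gene without CDDO-Me 1 (adjusted p = 0.0309), whose removal left 3 members and 3.47% of the genes tested called, and without CDDO-Me 2 there were 2 members and 1.61% of genes. Among other members with unadjusted p under 0.05, NDUFB3 had 33.0, 30.7 and 32.5 CPM with PRL-295 and 13.6, 17.0 and 25.8 with DMSO, and NDUFB1 32.7, 42.7 and 33.1 with PRL-295 and 14.7, 22.9 and 32.2 with DMSO; both are accessory subunits of complex I. COX7B of complex IV had 96.3, 110 and 90.6 CPM with PRL-295, against 43.8, 66.4 and 81.1 with DMSO.

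The nuclear median with PRL-295 was 0.21, with 66 of 90 members above 0, and the mitochondrial median 0.25, with 12 of 12 above 0; over all tested genes it was -0.01. By complex the nuclear medians were 0.19 for I, 0.09 for II, 0.20 for III, 0.28 for IV and 0.27 for V. Accessory subunits had a median of 0.26 and core subunits 0.08. After the GC and length correction the nuclear median was 0.11 and the mitochondrial one 0.04. Both compounds were compared with the same DMSO libraries, so their values are not independent.

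PRL-295 at 10 µM was also set directly against CDDO-Me at 250 nM, doses that differ. No member was called in edgeR, where 1.59% of all genes were called (0.905% higher and 0.684% lower), and limma called 0 members with 1.65% of genes. At an unadjusted p under 0.05 there were 31 members (30.4%), 30 of them higher with PRL-295 and 1 (MT-ND4L) lower, against 17.2% of all genes, 9.21% higher and 8.01% lower. In 35 members all PRL-295 libraries lay above all CDDO-Me libraries and in 0 all lay below, against 13.2% and 11.4% of all genes. DESeq2 called ATP5D, COX5A and MT-ND1 (3 members, with 7.02% of genes), and edgeR without a filter called 18 members with 4.28% of genes.

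The nuclear median of the direct comparison was 0.34, with 77 of 90 members above 0, and the mitochondrial median 0.03, with 7 of 12 above 0. Among the 63 nuclear members with a mean of at least 20 CPM, 61 lay above 0. Every complex had a nuclear median above 0, at 0.32 for I, 0.26 for II, 0.32 for III, 0.46 for IV and 0.39 for V. COX5A, an accessory subunit of complex IV, had 153.5, 199 and 164 CPM with PRL-295 and 118, 120 and 128 with CDDO-Me (log2 fold change 0.53, SE 0.145, adjusted p = 0.1003, edgeR). COX4I1 had 527, 683 and 550 CPM with PRL-295 and 381, 448 and 485 with CDDO-Me (0.46, adjusted p = 0.154, edgeR). ATP5B had 1201, 1516 and 1252 CPM with PRL-295 and 937, 1124 and 1112 with CDDO-Me (0.36, adjusted p = 0.172, edgeR). CYC1 had 368, 464 and 385 CPM with PRL-295 and 351, 327 and 344 with CDDO-Me (0.28, adjusted p = 0.225, edgeR). None of these 4 pairs of groups overlapped, and in each the highest value was that of PRL-295 2. NDUFA8 (0.50), NDUFB7 (0.27), UQCR10 (0.35), COX5B (0.33) and SDHA (0.28) were likewise above 0 and not called in the main fit. Of the genes named here, COX5A, COX4I1 and NDUFA8 were called in edgeR without a filter, where 4.28% of genes were called.

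For the genes that changed with CDDO-Me, intervals for the difference between the compounds varied in width. Those of ATP5D, SDHA, MT-ND1 and MT-ND4L left out 0, and those of UQCRB, ATP5J, NDUFV1 and MT-ND4 held it. For UQCRB the 95% interval of the log2 difference between PRL-295 and CDDO-Me ran from -1.18 to 1.41, and for ATP5J from -0.56 to 1.01. For ATP5D it ran from 0.20 to 0.71 and for MT-ND1 from 0.17 to 0.60 (adjusted p = 0.0838 in each case, edgeR). For SDHA it ran from 0.04 to 0.52, for NDUFV1 from -0.05 to 0.43 and for MT-ND4 from -0.38 to 0.21. MT-ND4L had a log2 difference of -0.47 (interval from -0.94 to -0.002, adjusted p = 0.289, edgeR). None of these differences passed the threshold in the main edgeR fit. In edgeR without a filter, where 4.28% of genes were called, those of ATP5D (adjusted p = 0.0466) and MT-ND4L (0.0257) passed. With DESeq2, where 7.02% of genes were called, those of ATP5D (adjusted p = 0.0374) and MT-ND1 (0.0449) passed. Without CDDO-Me 1 and PRL-295 2, the libraries lowest and highest in most nuclear members, the nuclear median of the direct comparison was 0.14 and the mitochondrial one 0.23, and 0 members were called. After the GC and length correction these medians were 0.25 and -0.40.

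**Figure D5:**
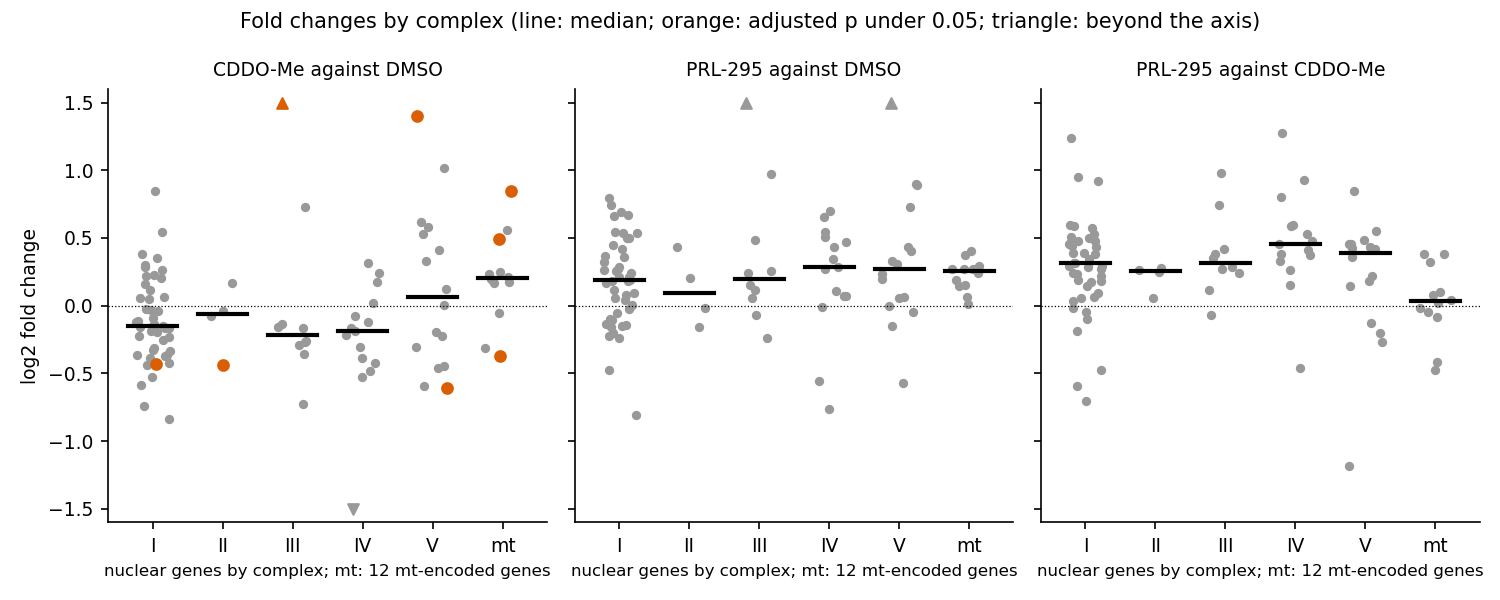
Log2 fold changes of the tested nuclear members by complex and of the 12 mitochondrially encoded members (mt) in 3 comparisons; lines are medians, orange points have an adjusted p under 0.05 and triangles lie beyond the axis. In the direct comparison the nuclear medians run from 0.26 to 0.46 and no point is called.

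Other genes of the pathway were called at a share like that of all genes. Over 6 lists, 19 of 168 tested genes were called with CDDO-Me (11.3%), beside 9.22% of all tested genes. Of the 19, 5 were higher and 14 lower, while 4.65% of all tested genes were called higher and 4.57% lower. Calls in these lists are given from the main fit only. Of 41 tested assembly factors outside the member rule, COA6 (a complex IV copper factor) rose with CDDO-Me, and BCS1L and FOXRED1, assembly factors of complexes III and I, fell. BCS1L had 38.1, 40.8 and 51.4 CPM with CDDO-Me and 72.8, 64.5 and 78.4 with DMSO (log2 fold change -0.73, SE 0.150, adjusted p = 0.0143, edgeR). The list's median was -0.24 with CDDO-Me, 0.08 with PRL-295 and 0.28 for PRL-295 against CDDO-Me, and its summed level was 1042 to 1244 CPM with CDDO-Me, 1306 to 1437 with PRL-295 and 1309 to 1400 with DMSO. Of 77 mitochondrial ribosomal protein genes, 3 rose and 7 fell with CDDO-Me (medians -0.22 with CDDO-Me, 0.15 with PRL-295 and 0.34 for PRL-295 against CDDO-Me). MRPL4, of the large subunit, was the only gene of these lists called in the direct comparison, apart from HMOX1 and 4 keratinocyte markers. It had 74.5, 95.7 and 85.9 CPM with PRL-295 and 54.1, 57.3 and 58.1 with CDDO-Me, without overlap (log2 fold change 0.63, SE 0.124, adjusted p = 0.0320, edgeR).

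Among 18 genes of mitochondrial DNA transcription and maintenance, ELAC2, the nuclease that trims the ends of mitochondrial transfer RNAs, fell with CDDO-Me and no other was called. ELAC2 had 200.5, 200.1 and 220.0 CPM with CDDO-Me, against 296, 283 and 266 with DMSO (log2 fold change -0.45, adjusted p = 0.0235, edgeR). Among 8 regulators of nuclear respiratory genes, ESRRA fell with CDDO-Me, to 154, 134 and 163 CPM, against 242, 204 and 196 with DMSO (-0.51, adjusted p = 0.0334, edgeR). Of 11 genes for cytochrome c and electron carriers, GPD2 rose and DHODH fell, and of 13 genes of the TCA cycle, MDH2 and IDH3B fell, all with CDDO-Me. In these 6 lists no gene was called for PRL-295 against DMSO in edgeR, where only 0.684% of all tested genes were called. In the direct comparison 1 of the 168 genes was called (0.595%), beside 1.59% of all tested genes.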

How the data were processed

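Per the labels' protocols, STAR 2.5 aligned paired-end reads and HTSeq 0.6.1 made the gene counts; the submitters' processing notes name hg38, and the annotation release, counting mode and strand setting are not given in the sources used here. The deposited counts are raw whole-number reads per gene. The authors' FPKM equalled the count divided by the deposited gene length and the library total for 100% of values within 0.1%. The main test on counts was the quasi-likelihood test of edgeR 4.0.16 under R 4.3.3, after filterByExpr and TMM scaling, in 1 fit of all 9 libraries, with Benjamini-Hochberg adjustment over 16239 genes and a threshold of 0.05. CPM are counts scaled to a library total of 1000000. Standard errors and 95% intervals of log2 fold changes come from the same fit. The 9 library totals ran from 23383800 to 32942156 counts, and 3 counts correspond to 0.0911 to 0.128 CPM; floors and share intervals cover counting error alone, because PCR copies are not separate molecules.

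Alternatives were RLE or total-count scaling, scaling without mitochondrial genes, DESeq2 1.42.0, other filters, limma 3.58.1 on log2(FPKM + 1) or log2(FPKM + 0.1), fits of 6 libraries, a replicate block, a correction for GC content and length, and leaving out each library; leaving out 2 libraries together was added after the data were seen. GC content was that of the longest transcript in GENCODE release 29, where 108 of 111 members had the same coordinates. The pipeline was tested on simulated data. Members, lists and roles were chosen with earlier results of these data known. Genes named were all mitochondrially encoded members, all called members, the 2 nuclear subunits with the highest FPKM in each complex, the markers, and up to 4 called genes per other list (the 2 with the highest CPM where none was called); NDUFB1, NDUFB3, COX7B, COX5A, isoforms and low subunits named beyond this were chosen after their values were seen. TWNK of the lists had no row under that name.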

Additional observations from a re-analysis of the deposited data

How the results depend on the processing

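Of 21 alternatives, the count of members called with CDDO-Me against DMSO (8) was within 1.5 times under RLE scaling, total-count scaling, scaling without mitochondrial genes, DESeq2 and a minimum of 1 CPM (8 to 10), and was 13 with no filter (8.59% of genes tested there called), 5 and 4 with limma on log2(FPKM + 1) and log2(FPKM + 0.1) (8.94% and 8.52%), 4 in a fit of 6 libraries (7.8%), 4 with the GC and length trend taken out (7.49%) and 17 (24.9%) without CDDO-Me 1 and PRL-295 2, a setting chosen after seeing the data. Leaving out single libraries gave 1 to 11. With the replicate number as a block it was 2 (ATP5D and NDUFB10, with 5.32% of genes), and 0 in both other comparisons. The labels do not say whether equal numbers pair the samples. Deviations of same-numbered libraries correlated between -0.137 and 0.104, and those of differently numbered libraries between -0.119 and 0.154. With so few libraries these values cannot decide whether samples were paired. For PRL-295 against DMSO the count of 0 became 4 with DESeq2 (4.63% of genes), 9 with no filter (2.83%) and 3 with 6 libraries (4.22%). It became 2 with the GC and length correction (1.5%), 5 without the 2 libraries (5.77%) and 0 to 3 on leaving out single ones. For PRL-295 against CDDO-Me it became 3 with DESeq2 (7.02%) and 18 with no filter (4.28%), and was 0 in every fit without a single library.

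Under the GC and length correction the mitochondrial median log2 fold change moved to 0.41 for CDDO-Me against DMSO. It moved to 0.042 for PRL-295 against DMSO and to -0.40 for PRL-295 against CDDO-Me. Without CDDO-Me 1 and PRL-295 2 the direct medians were 0.14 (nuclear) and 0.23 (mitochondrial). Leaving out single libraries, the direct mitochondrial median ran from -0.040 to 0.22 and the nuclear one from 0.25 to 0.48; for CDDO-Me against DMSO they ran from 0.06 to 0.29 and from -0.25 to -0.03, and for PRL-295 against DMSO from 0.13 to 0.34 and from 0.13 to 0.32. Shares of counted reads with other denominators moved by less than 1 SD. Where a cause of these moves is not part of the setting, it was not tested. UQCRB and ATP5J, called higher, had at most 10.1 CPM in each DMSO library.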
